A study of Homo sapiens with 24 samples.

Results

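The measurement described here is a difference between a pair of drug responses: the change in RNA caused by DS07551382 in A375 cells lacking PTDSS2, minus the change in HCT116 cells lacking PTDSS2. It was computed from expected counts as (A375 PTDSS2-KO DS07551382 minus A375 PTDSS2-KO DMSO) minus (HCT116 PTDSS2-KO DS07551382 minus HCT116 PTDSS2-KO DMSO), and it used 12 of the 24 libraries of the series. A375 is a human melanoma line and HCT116 a human colon carcinoma line. Each knockout group held 3 libraries: A375 PTDSS2-KO with 0.1 µM DS07551382, an inhibitor of PTDSS1, for 24 h, A375 PTDSS2-KO with DMSO, HCT116 PTDSS2-KO with the inhibitor, and HCT116 PTDSS2-KO with DMSO. The other 12 libraries came from the parent lines under the same treatments and served only as the same difference with PTDSS2 present. All 12 knockout libraries share the loss of PTDSS2, and each line was represented by 1 knockout clone, so that the effect of the line and that of the clone cannot be told apart. The labels do not say whether the 3 libraries of a group were separate cultures, so the tests below speak for the variation among libraries, some or all of which could be technical.

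Phosphatidylserine is an acidic phospholipid made in the endoplasmic reticulum (ER) by exchange of the head group of an existing phospholipid. PTDSS1 uses phosphatidylcholine for this exchange and PTDSS2 uses phosphatidylethanolamine, so a cell without PTDSS2 depends on PTDSS1. Part of the product is moved to mitochondria, where PISD turns it into phosphatidylethanolamine. The ER monitors its membranes and its load of unfolded proteins through the sensors of the unfolded protein response, and the kinases of the integrated stress response raise the translation of ATF4, whose target genes serve amino acid supply.

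Of 14320 genes tested in the 12 libraries, 11728 were expressed in both lines, 1326 in A375 only, 1200 in HCT116 only and 66 in neither. A gene counted as expressed in a line when its mean over the 6 knockout libraries of that line was at least 1 CPM (counts scaled to a common library total). Library totals were 9413904 to 11688267 counts in A375 knockout with inhibitor, 8123567 to 9950536 in A375 knockout with DMSO, 6211629 to 7910753 in HCT116 knockout with inhibitor and 8829345 to 9108761 in HCT116 knockout with DMSO. The treated HCT116 libraries were thus the shallowest. Errors of CPM means are SD over 3 libraries, errors of log2 values are standard errors of the fit, and a positive difference means that the response was more positive, or less negative, in A375. A gene is said to be called, or to have risen or fallen, when the adjusted p of edgeR's quasi-likelihood test was under 0.05.

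PTDSS2 RNA was low in all 12 knockout libraries. It was 1.94, 1.18 and 1.83 CPM in A375 knockout with inhibitor, against 0.938, 1.01 and 0.735 CPM in A375 knockout with DMSO. In HCT116 knockout it was 7.05, 4.79 and 4.99 CPM with inhibitor, against 5.34, 6.27 and 7.75 CPM with DMSO. The parent libraries held 21.8 to 25.2 CPM in A375 and 32.4 to 38.7 CPM in HCT116, so every knockout library was under every parent library of its line. PTDSS2 rose in A375 and was not called in HCT116. Its response difference was 1.07 ± 0.41 on the log2 scale and did not pass the test (edgeR, adjusted p = 0.057). It passed when all 24 libraries were fitted together (edgeR, adjusted p = 0.030), without HCT116 DMSO replicate 1 (0.037), without HCT116 inhibitor replicate 1 (0.025) or without A375 inhibitor replicate 2 (0.027). PTDSS1, the enzyme the compound targets, was 166, 149 and 168 CPM with inhibitor against 180, 168 and 178 CPM with DMSO in A375 knockout. In HCT116 knockout it was 78.1, 79.7 and 75.1 CPM with inhibitor against 106, 105 and 107 CPM with DMSO. PTDSS1 thus fell in both lines, by -0.12 ± 0.04 in A375, where the groups overlapped, and by -0.45 ± 0.05 in HCT116. Its difference was 0.33 ± 0.07 (edgeR, adjusted p = 6.3e-05). PISD moved the other way in HCT116, with 61.2, 66.9 and 61.2 CPM with inhibitor against 51.6, 51.7 and 51.1 CPM with DMSO. In A375 knockout PISD held 28.9, 31.6 and 29.9 CPM with inhibitor against 32.7, 30.9 and 32.5 CPM with DMSO, where the groups overlapped and the response was not called. The difference for PISD was -0.38 ± 0.09 (edgeR, adjusted p = 0.0015).

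Summed markers of the tissues of origin separated the lines, though not every marker did. The summed level of 14 melanocyte markers was 1020 to 1080 CPM with inhibitor and 859 to 925 CPM with DMSO in A375 knockout, against 72.7 to 82.1 and 56.4 to 62.6 CPM in HCT116 knockout. SOX10, a transcription factor of the neural crest and the melanocyte lineage, averaged 435 and 339 CPM in A375 and under 1 CPM in HCT116. The pigment genes TYR, TYRP1, DCT and MLANA were at 0 or under 1 CPM in A375 as well. PMEL and GPR143, of the same list, were higher in HCT116. With inhibitor and with DMSO, PMEL averaged 3.93 and 2.94 CPM in HCT116 against 0.192 and 0.231 CPM in A375. GPR143 averaged 1.2 and 0.687 CPM against 0.141 and 0.0771 CPM. The summed level of 17 colon markers was 222 to 235 CPM with inhibitor and 283 to 300 CPM with DMSO in A375 knockout, against 3520 to 3640 and 3970 to 4290 CPM in HCT116 knockout. In HCT116, CDX1 and CEACAM5 were at 0, and VIL1, LGR5 and KRT20 were under 1 CPM. KRT7 was higher in A375, at 3.81 CPM with inhibitor and 5.47 CPM with DMSO, against 2.78 and 3.41 CPM in HCT116. Both sums moved with the inhibitor in both lines, the melanocyte sum upward and the colon sum downward, but the members did not move as one. In A375, NGFR averaged 71.8 CPM with inhibitor and 140 CPM with DMSO, against the course of the melanocyte sum. MITF averaged 26.3 and 29.6 CPM, but its groups overlapped and its response was not called. In HCT116 the colon sum followed KRT8, KRT18 and KRT19, while EPCAM averaged 442 CPM with inhibitor and 341 CPM with DMSO, ELF3 140 and 59.5 CPM, and CDH1 74.4 and 62.2 CPM. The sum of 12 fibroblast and immune markers was 19.4 to 21.4 CPM with inhibitor and 18.9 to 21.4 CPM with DMSO in A375 knockout, against 29.8 to 32.4 and 19.8 to 23.1 CPM in HCT116 knockout, most of it COL1A1 in HCT116. The part of these shifts in the results below was not tested.

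Among the 11728 genes expressed in both lines, the response differed for 2761, or 23.5%. It was more positive in A375 for 1450 genes (12.4%) and more negative for 1311 (11.2%). The median size of a called difference was 0.38 on the log2 scale, and 60 genes were at least 2-fold more positive and 130 at least 2-fold more negative. The 2 responses themselves were of like extent. In A375, 2152 genes rose (18.3%) and 2275 fell (19.4%), and in HCT116, 2063 rose (17.6%) and 2429 fell (20.7%). The median response of all genes was 0 in A375 and 0.001 in HCT116, on the log2 scale. Scaling sets the typical change near 0, so these medians do not bear on the extent of the responses.

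Genes that moved in opposite directions were a minor share of the called differences, 368 of 2761 or 13.3%. Of these, 202 rose in A375 and fell in HCT116, and 166 fell in A375 and rose in HCT116. With DESeq2 in place of edgeR these counts were 132 and 86. A further 423 moved the same way in both lines by unlike amounts, 193 of them by more in A375 and 230 by more in HCT116. The largest classes were genes called in 1 line alone. There were 943 called in A375 alone, 540 that rose and 403 that fell, and 937 called in HCT116 alone, 464 that fell and 473 that rose. In 90 genes neither single response was called though their difference was. For comparison, 928 genes fell and 569 rose in both lines with no called difference between them.

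**Figure D1:**
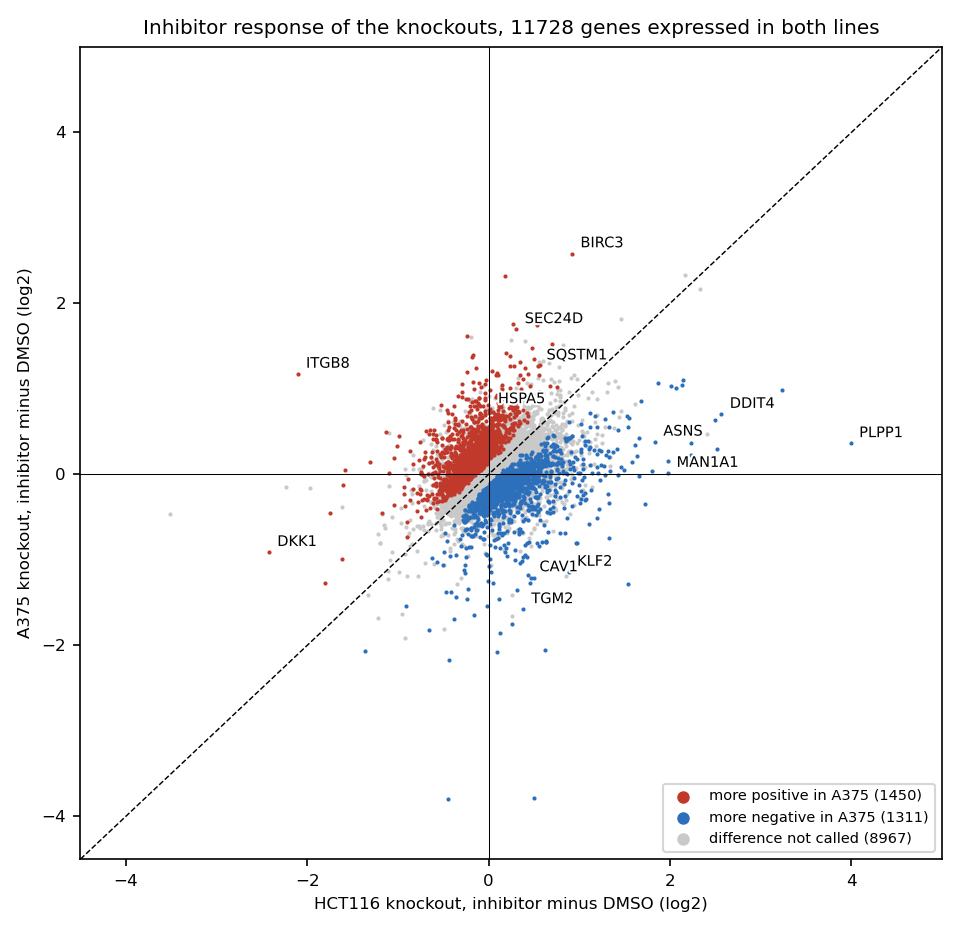
Response to the inhibitor in A375 knockout (vertical axis, log2) against that in HCT116 knockout (horizontal axis, log2) for the 11728 genes expressed in both lines, 1 point per gene, with red and blue marking called differences. Points off the dashed line of equal response form clouds on both sides, 1450 above and 1311 below, and 7 genes lie outside the axes.

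Genes of the ER lumen mostly rose in A375 and mostly did not in HCT116. All 27 listed ER chaperones and folding enzymes were tested and expressed in both lines, and 24 were more positive in A375, beside 12.4% of all such genes, while none was more negative. The median difference of the list was 0.40, against -0.008 over all genes tested. In A375, 25 of the 27 rose, beside 18.3% of all such genes, with a median of 0.41. In HCT116, 3 rose and 7 fell, with a median of -0.01. The HCT116 counts stand beside 17.6% and 20.7% of all such genes and are not far from these shares. The list was taken up with earlier results of these data known, so the count describes these libraries and does not stand as independent evidence.

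HSPA5, the main Hsp70 chaperone of the ER, was 1780, 1760 and 1790 CPM in A375 knockout with inhibitor, against 1070, 1030 and 1040 CPM with DMSO. In HCT116 knockout it was 882, 908 and 841 CPM with inhibitor, against 855, 898 and 856 CPM with DMSO. The A375 groups stood apart and the HCT116 groups overlapped. Its difference was 0.75 ± 0.04 (edgeR, adjusted p = 8.2e-27). PDIA4, a protein disulfide isomerase, was 383, 394 and 386 CPM with inhibitor against 260, 250 and 250 CPM with DMSO in A375, and 378, 376 and 383 CPM against 419, 420 and 402 CPM in HCT116. It rose in the first line and fell in the second, as did DNAJC3, SDF2L1, MANF, DNAJB11 and FKBP14, all of them proteins of the ER lumen. DNAJC3, a co-chaperone of HSPA5, was 155, 154 and 152 CPM with inhibitor against 112, 118 and 119 CPM with DMSO in A375, and 64.7, 64.3 and 64.5 CPM against 87.7, 85.0 and 88.8 CPM in HCT116. SDF2L1, which binds HSPA5, was 31.9, 35.9 and 32.7 CPM with inhibitor against 24.8, 25.9 and 24.6 CPM with DMSO in A375, and 53.1, 49.7 and 47.8 CPM against 70.1, 78.0 and 67.6 CPM in HCT116. FKBP14, a prolyl isomerase, was 56.8, 49.3 and 50.5 CPM with inhibitor against 30.1, 29.5 and 29.5 CPM with DMSO in A375, and 14.5, 15.7 and 14.2 CPM against 19.8, 20.2 and 23.7 CPM in HCT116. For these genes no library of an inhibitor group overlapped its DMSO group in either line. Their differences were 0.74 ± 0.05, 0.83 ± 0.07, 0.93 ± 0.10 and 1.33 ± 0.13 for PDIA4, DNAJC3, SDF2L1 and FKBP14. HYOU1, another ER chaperone, was 611, 606 and 599 CPM with inhibitor against 390, 389 and 380 CPM with DMSO in A375, and 297, 303 and 290 CPM against 276, 290 and 280 CPM in HCT116. The 3 members without a called difference were SDF2, SIL1 and PDIA5, at -0.09 ± 0.12, 0.06 ± 0.14 and 0.17 ± 0.14.

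Groups whose libraries do not overlap were common in these data. Inhibitor and DMSO libraries were apart for 47.6% of the genes expressed in both lines in A375 knockout and for 46.9% in HCT116 knockout.

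The ER stress response element, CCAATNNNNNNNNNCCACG read on both strands, is the site through which ATF6 acts on chaperone promoters. It was searched in RefSeq promoters of build GRCh38.p14, from 250 bases before to 50 bases after the gene start, for 9516 of the 11728 genes expressed in both lines. It was present in 6 of 25 ER chaperone promoters (24.0%), namely HSPA5, HSP90B1, CALR, CANX, CRELD2 and ERO1B, and in 22 of all 27305 promoters of the table (0.0806%). Of the 14 genes expressed in both lines that carry it, 10 were more positive in A375, 4 were not called and none was more negative. The 10 made up 0.844% of the genes more positive in A375 that had a promoter in the table, against 0.0550% of the genes not called. They were the 6 chaperones, XBP1 of the unfolded protein list, SERP1, EIF2A and TRIM5. These shares thus largely repeat the counts of lists taken up with earlier results known, and are no separate evidence. The carriers not called were FICD, ZNF17, ALG12 and TMEM120A. A match is a stretch of letters and does not show that a factor was bound. The 250 bases before the start of 4 of these genes are shown with the element in capitals, which reads CGTGG and ATTGG where it lies on the other strand.
HSPA5 (chr9:125241344-125241593, minus strand): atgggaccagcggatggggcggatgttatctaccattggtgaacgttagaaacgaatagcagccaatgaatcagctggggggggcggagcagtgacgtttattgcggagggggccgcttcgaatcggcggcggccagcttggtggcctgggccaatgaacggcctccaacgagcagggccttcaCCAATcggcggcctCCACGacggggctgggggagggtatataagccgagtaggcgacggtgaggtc
HSP90B1 (chr12:103930160-103930409, plus strand): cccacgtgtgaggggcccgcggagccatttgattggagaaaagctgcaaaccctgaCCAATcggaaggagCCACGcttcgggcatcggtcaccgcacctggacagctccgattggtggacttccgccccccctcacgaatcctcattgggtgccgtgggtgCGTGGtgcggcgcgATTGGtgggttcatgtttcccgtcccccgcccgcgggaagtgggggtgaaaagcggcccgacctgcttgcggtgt
CRELD2 (chr22:49918384-49918633, plus strand): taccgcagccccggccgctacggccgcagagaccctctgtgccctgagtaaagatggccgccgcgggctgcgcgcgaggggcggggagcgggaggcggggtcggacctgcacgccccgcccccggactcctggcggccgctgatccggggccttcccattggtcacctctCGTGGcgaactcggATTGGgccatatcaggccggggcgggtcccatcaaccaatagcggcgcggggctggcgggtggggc
XBP1 (chr22:28800570-28800819, minus strand): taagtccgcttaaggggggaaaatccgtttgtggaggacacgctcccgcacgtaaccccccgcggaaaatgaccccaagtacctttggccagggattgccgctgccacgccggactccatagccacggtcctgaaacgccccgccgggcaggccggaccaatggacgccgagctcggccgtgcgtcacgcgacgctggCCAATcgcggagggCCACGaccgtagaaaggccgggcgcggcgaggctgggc
In HSPA5 the element began 66 bases before the start and in XBP1, a transcription factor of the unfolded protein response, 52 bases before it. HSP90B1, the ER form of Hsp90, carried 2 copies. It averaged 1420 ± 45.4 CPM with inhibitor against 1070 ± 26.9 CPM with DMSO in A375, and 1290 ± 23.3 CPM against 1350 ± 47.9 CPM in HCT116, a difference of 0.48 ± 0.04. CRELD2, an ER protein induced by ER stress, averaged 44.9 ± 2.70 CPM against 34.3 ± 2.08 CPM in A375 and 48.7 ± 2.67 CPM against 49.3 ± 6.70 CPM in HCT116, a difference of 0.40 ± 0.11. XBP1 rose in both lines, to 124 ± 3.81 CPM with inhibitor against 64.1 ± 1.25 CPM with DMSO in A375, and to 74.8 ± 1.39 CPM against 49.8 ± 5.25 CPM in HCT116, with a difference of 0.37 ± 0.08.

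The sensors and degradation genes of the unfolded protein response differed in the same direction, but HCT116 did not stand still there. Of 25 listed genes, 24 were found in the files and 23 were expressed in both lines. Of these 23, 12 were more positive in A375 and 1 more negative, beside 12.4% and 11.2% of all such genes. In A375, 18 rose and 1 fell, and in HCT116, 11 rose and 1 fell, with medians of 0.38 and 0.13. Of all such genes, 18.3% rose and 19.4% fell in A375, and 17.6% rose and 20.7% fell in HCT116. EIF2AK3, the ER-bound kinase PERK, was 37.1, 41.2 and 39.3 CPM with inhibitor against 14.4, 16.4 and 16.5 CPM with DMSO in A375, and 20, 22.6 and 24.3 CPM against 17.9, 17.8 and 16.6 CPM in HCT116. Its difference was 0.97 ± 0.14 (edgeR, adjusted p = 1.8e-08). HERPUD1, which serves the degradation of ER proteins, was 113, 113 and 108 CPM against 49.6, 50.8 and 48.4 CPM in A375 and 49.7, 48.3 and 46.9 CPM against 37.6, 34.1 and 35.6 CPM in HCT116. Both genes rose in both lines, by more in A375. SYVN1, the ubiquitin ligase of the same pathway, and the lectin ERLEC1 had differences of 0.71 ± 0.10 and 0.67 ± 0.08. The 1 member more negative in A375 was ATF6B, at -0.28 ± 0.09.

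Most carriers between the ER and the Golgi were more positive in A375 as well. All 34 listed genes were tested, 27 were more positive in A375, beside 12.4% of all genes expressed in both lines, and 1, the COPI subunit COPG2, was more negative at -0.53 ± 0.12, beside 11.2% of all such genes. In A375, 29 rose and 1 fell, beside 18.3% and 19.4% of all genes, and in HCT116, 10 rose and 6 fell, beside 17.6% and 20.7%, with medians of 0.38 and 0.03. SEC24D, which picks cargo for COPII vesicles leaving the ER, was 125, 121 and 121 CPM with inhibitor against 39.2, 35.5 and 38.2 CPM with DMSO in A375. In HCT116 it was 39.7, 38.7 and 40.4 CPM with inhibitor against 34, 31.2 and 30.8 CPM with DMSO. Both lines' groups were apart, and the difference of 1.39 ± 0.09 was the largest of the list (edgeR, adjusted p = 1.7e-22). Its relative SEC24A was 129, 122 and 134 CPM against 71.7, 68.3 and 72.4 CPM in A375 and 41.7, 43.5 and 40.4 CPM against 45.5, 49.3 and 43.5 CPM in HCT116, a difference of 1.00 ± 0.08. KDELR3, a receptor that returns escaped ER proteins, averaged 25.5 ± 1.77 CPM against 11.1 ± 0.603 CPM in A375 and 30.1 ± 0.288 CPM against 28.3 ± 1.25 CPM in HCT116, a difference of 1.10 ± 0.13. ARCN1, a COPI subunit, and the GTPase ARF4 rose in A375 and fell in HCT116, with differences of 0.57 ± 0.05 and 0.63 ± 0.05.

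**Figure D2:**
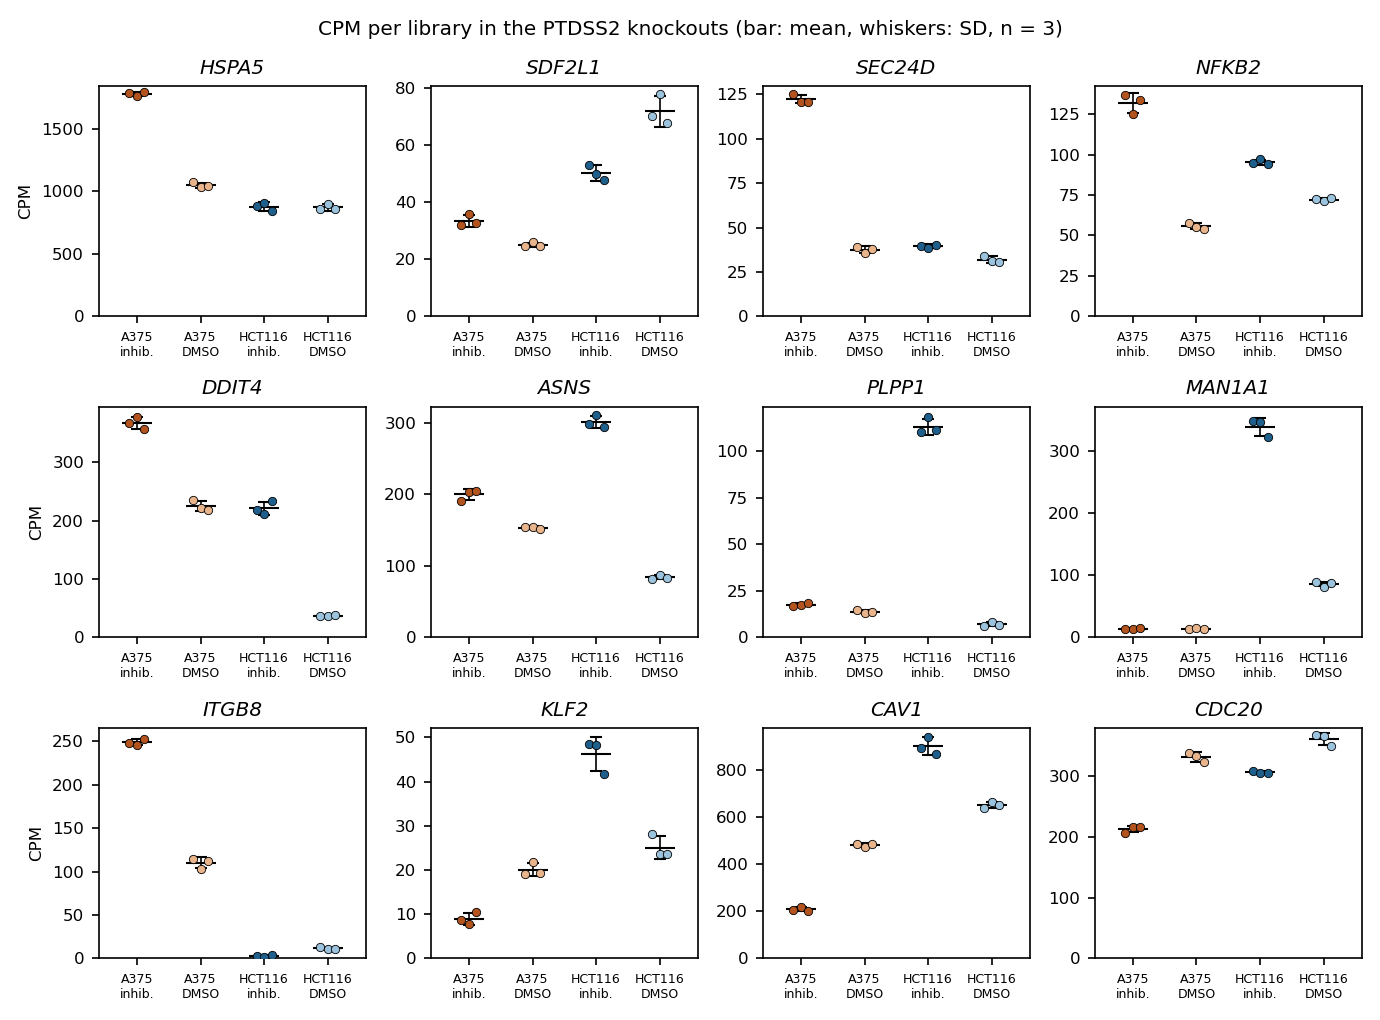
CPM of 12 genes in each knockout library (points), with the mean and SD of 3 libraries, for A375 inhibitor, A375 DMSO, HCT116 inhibitor and HCT116 DMSO from left to right; all vertical axes start at 0. HSPA5 was near 1780 CPM in the treated A375 libraries and between 841 and 908 CPM in all 6 HCT116 libraries, whereas DDIT4, ASNS, PLPP1 and MAN1A1 changed most in HCT116.

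Factors and targets of the integrated stress response mostly rose in both lines. Of 24 listed regulators and outputs of the integrated stress response, 21 were expressed in both lines, 13 of them more negative in A375 and 1 more positive, beside 11.2% and 12.4% of all genes. In A375, 20 of the 21 rose and 1 fell, and in HCT116, 20 rose and none fell, with medians of 0.66 and 0.89. Among all genes expressed in both lines, 18.3% rose and 19.4% fell in A375, and 17.6% rose and 20.7% fell in HCT116. DDIT4, an inhibitor of mTORC1, was 368, 378 and 357 CPM with inhibitor against 235, 222 and 219 CPM with DMSO in A375. In HCT116 it was 219, 211 and 234 CPM with inhibitor against 37.3, 36.9 and 37.7 CPM with DMSO. The groups were apart in both lines, and the treated HCT116 libraries reached about the level of the untreated A375 libraries. Its difference was -1.86 ± 0.06 (edgeR, adjusted p = 4.0e-41). CHAC1, an enzyme that breaks down glutathione, was 27.3, 28.1 and 23.7 CPM with inhibitor against 14.4, 15.8 and 14 CPM with DMSO in A375, and 26.6, 28.4 and 26.0 CPM against 1.39, 3.81 and 4.41 CPM in HCT116. With the inhibitor the lines overlapped, and with DMSO they did not. Its difference was -2.23 ± 0.22 (edgeR, adjusted p = 4.7e-10). TRIB3, a pseudokinase induced by ATF4, was 147, 143 and 145 CPM against 97.3, 92.2 and 86.3 CPM in A375 and 117, 118 and 115 CPM against 40.9, 40.0 and 39.2 CPM in HCT116, a difference of -0.89 ± 0.07. STC2, a secreted glycoprotein, was 47.7, 48.5 and 45.4 CPM against 42.3, 39.3 and 38.9 CPM in A375 and 146, 150 and 145 CPM against 59.4, 62.8 and 57.1 CPM in HCT116, a difference of -1.07 ± 0.08. ATF4 itself averaged 476 ± 13.6 CPM against 349 ± 11.6 CPM in A375 and 607 ± 13.7 CPM against 367 ± 7.63 CPM in HCT116, a difference of -0.28 ± 0.05. The member more positive in A375 was HERPUD1, which the unfolded protein response also drives.

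Amino acid transporters and synthesis enzymes, and part of the tRNA synthetases, were also more often more negative than more positive in A375. Of 23 listed transporters and enzymes, 21 were expressed in both lines, with median responses of 0.32 in A375 and 0.61 in HCT116. Of the 21, 13 were more negative in A375 and 2 more positive, beside 11.2% and 12.4% of all genes expressed in both lines. ASNS, asparagine synthetase, was 191, 204 and 205 CPM with inhibitor against 155, 154 and 151 CPM with DMSO in A375, and 298, 311 and 295 CPM against 82.0, 87.4 and 83.7 CPM in HCT116. The order of the lines was thus reversed between treatments, A375 being lower with inhibitor and higher with DMSO. Its difference was -1.45 ± 0.06 (edgeR, adjusted p = 8.1e-37). PSAT1, of serine synthesis, was 581, 596 and 589 CPM against 518, 507 and 506 CPM in A375 and 444, 464 and 446 CPM against 179, 181 and 181 CPM in HCT116, a difference of -1.12 ± 0.05. SLC7A11, the cystine transporter, was 386 ± 10.4 CPM with inhibitor against 188 ± 6.94 CPM with DMSO in A375 and 239 ± 8.99 CPM against 54.5 ± 1.64 CPM in HCT116, a difference of -1.09 ± 0.06. Unlike these, the leucine transporter SLC7A5 moved in opposite directions, being 1 of 4 members of the list with opposite calls. It was 1850, 1740 and 1850 CPM with inhibitor against 2240, 2130 and 2180 CPM with DMSO in A375, and 1090, 1080 and 1040 CPM against 767, 769 and 725 CPM in HCT116, with a difference of -0.78 ± 0.04 (edgeR, adjusted p = 1.2e-27). PCK2, the mitochondrial phosphoenolpyruvate carboxykinase, is not a member of the list and was named for its large negative difference. It was 35.8, 36.6 and 36.9 CPM against 29.1, 28.2 and 27.6 CPM in A375. In HCT116 it was 70.9, 74.1 and 70.9 CPM against 18.1, 15.2 and 12.7 CPM, a difference of -1.86 ± 0.11. Of 20 tRNA synthetases, 9 were more negative in A375 and 1 more positive, beside the same 11.2% and 12.4%. The list was led by CARS1 at -0.72 ± 0.06 and AARS1 at -0.45 ± 0.05, and its median difference was -0.05. The short element TGATGNAAT, a form of the site bound by ATF4 with a CEBP partner, was found on either strand in 1 of 15 promoters of the amino acid list (MTHFD1L), 1 of 16 of the synthetase list (TARS1), 0 of 18 of the integrated stress response list and 1.02% of all promoters. It was in 0.431% of promoters of genes expressed in both lines, 0.665% of those more negative in A375, 0.506% of those more positive and 0.385% of those not called.

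The level of these genes in vehicle (DMSO) differed between the lines as well. With DMSO, 15 of the 21 integrated stress response genes were higher in A375 knockout than in HCT116 knockout, with a median gap of 0.46 on the log2 scale. With inhibitor it was 12 of 21 and a gap of 0.25. Among all genes expressed in both lines, 50.7% were higher in A375 knockout with DMSO and 50.6% with inhibitor. For the amino acid list the median gap was 0.42 with inhibitor and 0.90 with DMSO, and for the tRNA synthetases 0.24 and 0.54. The parent lines with DMSO, which enter no part of the knockout difference, had gaps of 0.61, 0.93 and 0.58 for the same lists. The ER lists had the opposite course, with gaps of 0.16 with inhibitor and -0.09 with DMSO for the chaperones and of 0.72 and 0.27 for ER-Golgi carriers. Over all genes expressed in both lines the median gap was 0.01 in each case. These gaps are given as a description, since for each gene an inhibitor gap minus a DMSO gap is nearly the response difference itself. The medians of a list need not subtract to its median difference.

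**Figure D3:**
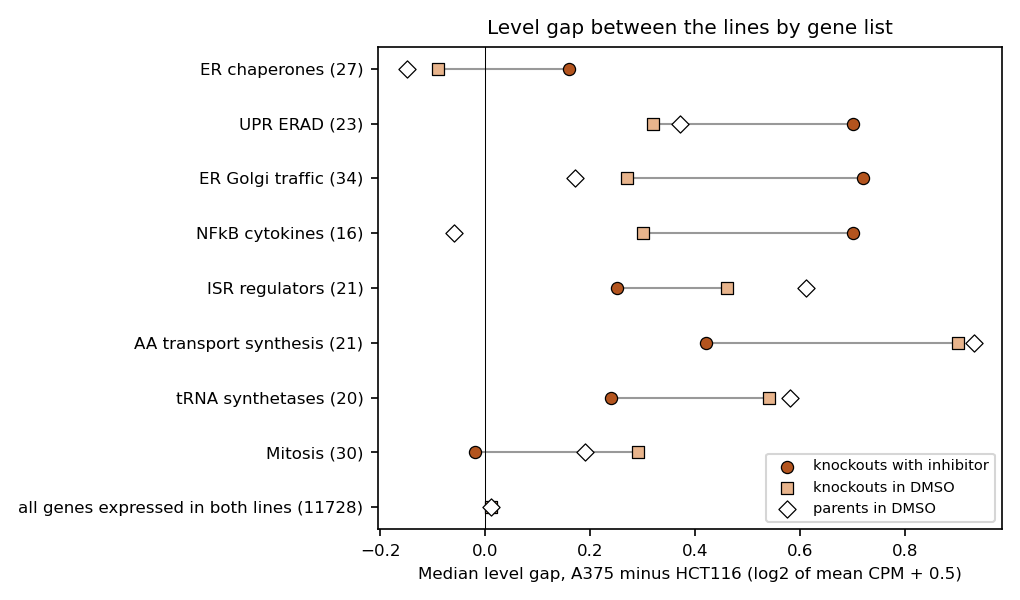
Median gap in level between the lines (A375 minus HCT116, log2 of mean CPM plus 0.5) for genes expressed in both, with the number of genes in brackets; circles are knockouts with inhibitor, squares knockouts with DMSO and diamonds parents with DMSO. For the chaperone, unfolded protein, ER-Golgi and NF-kB lists the circle lies right of the square, and for the stress response, amino acid, synthetase and mitosis lists it lies left of it.

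NF-kB genes rose more in A375. Of 26 listed genes, 16 were expressed in both lines, 9 more positive and 1 more negative in A375, beside 12.4% and 11.2% of all genes, with medians of 0.90 in A375 and 0.21 in HCT116. NFKB2, an NF-kB subunit, was 137, 125 and 134 CPM with inhibitor against 57.8, 55.0 and 54.2 CPM with DMSO in A375, and 95.1, 97.1 and 94.1 CPM against 72.4, 71.1 and 72.9 CPM in HCT116. It rose in both lines, and its difference was 0.84 ± 0.07 (edgeR, adjusted p = 1.9e-16). BIRC3, an inhibitor of cell death driven by NF-kB, was 33.6, 33.2 and 34.6 CPM against 5.73, 6.82 and 4.52 CPM in A375 and 6.06, 9.43 and 7.01 CPM against 3.53, 4.14 and 4.09 CPM in HCT116, a difference of 1.66 ± 0.23. The inhibitor NFKBIE and the adhesion molecule ICAM1 rose in A375 and were not called in HCT116, with differences of 1.18 ± 0.17 and 0.99 ± 0.14. NFKB1 was the member with opposite calls, at 0.13 in A375 and -0.23 in HCT116. The chemokine CXCL8 had like responses, 2.17 in A375 and 2.33 in HCT116, at unlike levels. It averaged 63.2 ± 2.62 CPM with inhibitor against 14 ± 0.893 CPM with DMSO in A375 and 3.00 ± 0.506 CPM against 0.580 ± 0.0582 CPM in HCT116, and its difference of -0.16 ± 0.32 leaves room for a gap of either sign. The cytokine LIF was more negative in A375, at -0.40 ± 0.08, having risen in both. Another 6 members were expressed in A375 only.

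Mitosis genes fell in A375, and fewer of them fell in HCT116. All 30 listed mitosis genes were tested, 23 were more negative in A375, beside 11.2% of all genes expressed in both lines, and none was more positive. In A375 all 30 fell, with a median of -0.34, beside 19.4% of all genes expressed in both lines. In HCT116, 14 fell and 4 rose, with a median of -0.07, beside 20.7% and 17.6% of all such genes. CDC20, an activator of the anaphase-promoting complex, was 207, 217 and 216 CPM with inhibitor against 339, 334 and 324 CPM with DMSO in A375, and 309, 306 and 305 CPM against 368, 367 and 350 CPM in HCT116. It fell in both lines, with a difference of -0.40 ± 0.05 (edgeR, adjusted p = 1.4e-10). ESPL1, the separase that frees sister chromatids, was 129, 125 and 127 CPM against 165, 154 and 156 CPM in A375, and 128, 136 and 125 CPM against 116, 110 and 113 CPM in HCT116. It moved in opposite directions, with a difference of -0.52 ± 0.06, the largest in size of the list. The kinetochore gene CENPF and the topoisomerase TOP2A had opposite calls likewise, at -0.37 ± 0.05 and -0.38 ± 0.05. For TOP2A the HCT116 groups overlapped, at 386, 365 and 387 CPM with inhibitor against 340, 345 and 377 CPM with DMSO. These differences were small beside those of the stress genes, and none of the list reached 2-fold. Of 30 DNA replication genes, 12 were more negative in A375 and 2 more positive, beside 11.2% and 12.4% of all genes. Of the 30, 27 fell in A375 against 16 in HCT116, beside 19.4% and 20.7% of all genes. MCM5, of the replicative helicase, was 113, 105 and 114 CPM against 154, 147 and 150 CPM in A375 and 244, 240 and 250 CPM against 236, 240 and 228 CPM in HCT116, a difference of -0.50 ± 0.06.

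The cell cycle homology region, TTTGAA read on both strands, is the element through which many mitosis genes are kept silent outside division. It occurred in 18 of the 25 mitosis promoters in the table (72.0%), in 9.26% of the 9516 promoters of genes expressed in both lines and in 15.4% of all 27305. It was in 12.5% of promoters of genes more negative in A375, 6.58% of those more positive and 9.22% of those not called. Within the mitosis list, 13 of 18 genes with the element and 6 of 7 without it were more negative in A375. The 250 bases before the start of CDC20 and ESPL1 are shown with the element in capitals, which reads TTCAAA on the other strand.
CDC20 (chr1:43358731-43358980, plus strand): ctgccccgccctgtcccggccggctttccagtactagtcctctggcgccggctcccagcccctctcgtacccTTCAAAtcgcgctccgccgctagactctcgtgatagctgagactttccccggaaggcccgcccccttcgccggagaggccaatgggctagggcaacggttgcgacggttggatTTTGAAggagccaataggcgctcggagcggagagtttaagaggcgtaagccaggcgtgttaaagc
ESPL1 (chr12:53268049-53268298, plus strand): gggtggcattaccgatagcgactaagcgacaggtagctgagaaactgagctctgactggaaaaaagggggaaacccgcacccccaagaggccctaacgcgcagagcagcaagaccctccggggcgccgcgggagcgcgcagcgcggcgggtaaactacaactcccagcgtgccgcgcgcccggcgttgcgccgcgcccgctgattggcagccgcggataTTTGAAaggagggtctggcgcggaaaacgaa

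**Figure D4:**
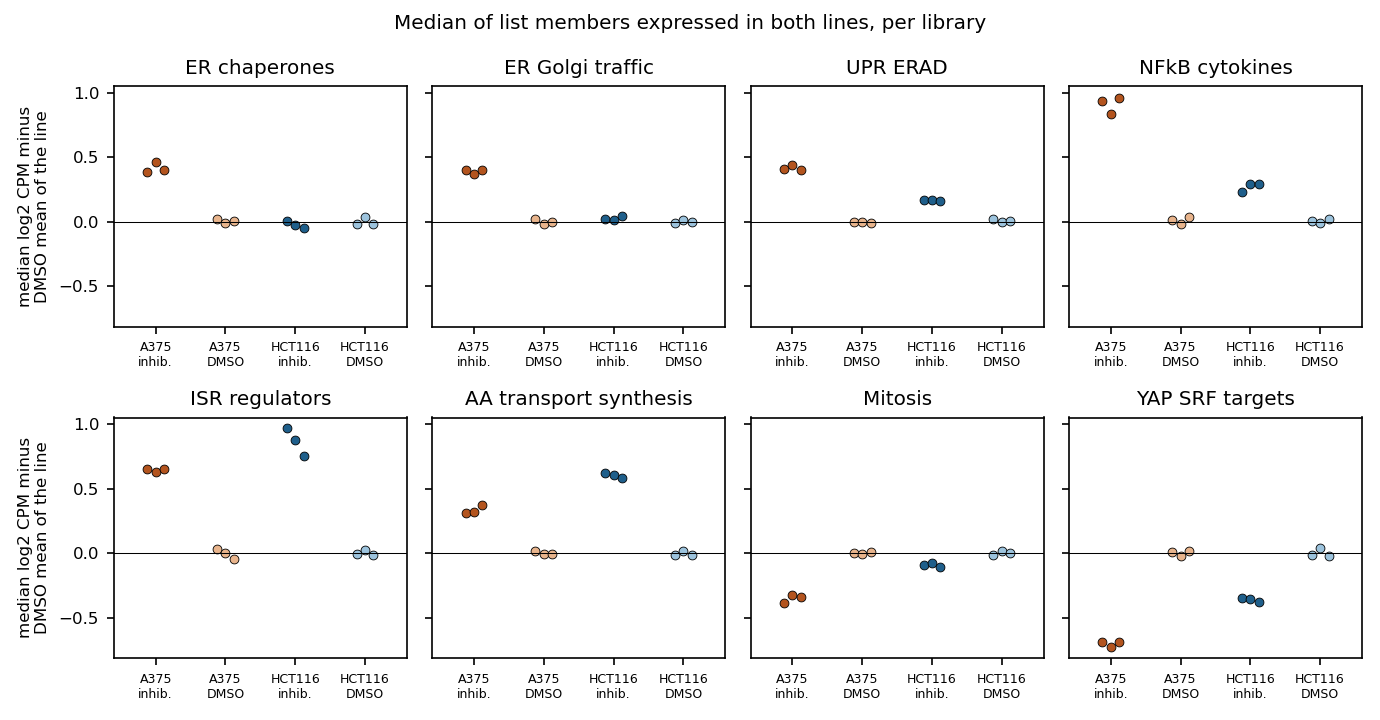
Median, over list members expressed in both lines, of log2 CPM minus the DMSO mean of the same line, for each library (points) in A375 inhibitor, A375 DMSO, HCT116 inhibitor and HCT116 DMSO from left to right. In each of the 8 lists the 3 treated A375 libraries lie apart from the 3 treated HCT116 libraries. For the chaperones they lie at 0.38 to 0.47 against -0.05 to 0.00. The 8 lists were picked for display, and lists not shown were apart too. Among these was cholesterol synthesis, at 0.349 to 0.387 against 0.388 to 0.404, with a median difference of 0. Standing apart is thus not particular to the lists shown.

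Among genes with at least 8 CPM in a group of each line, the 10 largest negative differences were those of PLPP1, CHAC1, LPAR1, IGFBP2, KLF2, MAN1A1, TGM2, DDIT4, PCK2 and PTPRM. PLPP1, a phosphatase of lysophosphatidic and phosphatidic acid, was 16.8, 17.5 and 18.5 CPM with inhibitor against 14.4, 12.9 and 13.8 CPM with DMSO in A375. In HCT116 it was 110, 118 and 111 CPM with inhibitor against 6.31, 8.17 and 6.78 CPM with DMSO. It rose in both lines, slightly in A375 and strongly in HCT116, and its difference was -3.63 ± 0.14 (edgeR, adjusted p = 8.1e-37). LPAR1, a receptor for lysophosphatidic acid, was 2.16, 1.68 and 2.18 CPM against 7.61, 10.7 and 7.56 CPM in A375, and 9.16, 10.9 and 8.88 CPM against 6.73, 11.0 and 9.47 CPM in HCT116. It fell in A375 and its HCT116 groups overlapped, with a difference of -2.17 ± 0.27. IGFBP2, which binds insulin-like growth factors, was 91.9, 96.9 and 88.5 CPM against 113, 123 and 116 CPM in A375, and 517, 492 and 471 CPM against 152, 149 and 145 CPM in HCT116, a difference of -2.08 ± 0.06. MAN1A1, a Golgi mannosidase of N-glycan trimming, was 13.7, 12.9 and 15.4 CPM against 13.9, 14.6 and 13.3 CPM in A375, and 349, 346 and 322 CPM against 88.3, 81.4 and 87.9 CPM in HCT116. It did not differ beyond its spread in A375, and its difference was -1.97 ± 0.11. TGM2, a transglutaminase, was 76.6, 69.7 and 71.9 CPM against 223, 213 and 215 CPM in A375, and 10.0, 11.1 and 11.1 CPM against 8.44, 8.73 and 7.42 CPM in HCT116, a difference of -1.96 ± 0.14. PTPRM, a receptor tyrosine phosphatase, was 9.93, 9.47 and 8.03 CPM against 9.27, 7.58 and 7.46 CPM in A375 and 30.2, 31.7 and 30.1 CPM against 7.38, 7.73 and 8.18 CPM in HCT116, a difference of -1.82 ± 0.18. LBH lay outside the rule for named genes, being under 8 CPM in A375, and was chosen after its values were seen. It was 1.40, 1.78 and 1.92 CPM with inhibitor against 0.938, 1.14 and 2.10 CPM with DMSO in A375, and 27.5, 26.6 and 24 CPM against 0.107, 0.336 and 0.323 CPM in HCT116, where the DMSO level was that of a few reads.

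ITGB8, the integrin beta 8 subunit, gave the largest positive difference under the same minimum. It was 248, 246 and 253 CPM with inhibitor against 115, 103 and 112 CPM with DMSO in A375. In HCT116 it was 2.47, 2.09 and 3.43 CPM with inhibitor against 12.5, 10.4 and 11.3 CPM with DMSO. It rose in the first line and fell in the second with no overlap, and its difference was 3.28 ± 0.17 (edgeR, adjusted p = 2.3e-28). RIPK4, a kinase of epithelial differentiation, was 40.4, 44.2 and 45.5 CPM against 16.5, 17.6 and 15.7 CPM in A375 and 15.1, 15.7 and 13.2 CPM against 15.9, 16.5 and 17.2 CPM in HCT116, a difference of 1.56 ± 0.14. DKK1, a secreted Wnt antagonist, fell in both lines, to 164, 161 and 168 CPM with inhibitor against 299, 316 and 313 CPM with DMSO in A375 and to 17.8, 20.3 and 17.5 CPM against 93.1, 105 and 100 CPM in HCT116. The larger fall was in HCT116, so the difference was positive, at 1.51 ± 0.08. ATP10D, a flippase of the P4-ATPase family, fell in HCT116 alone. It was 22.9, 18 and 22.0 CPM against 19.6, 16.7 and 20.2 CPM in A375 and 12.4, 12.3 and 13.6 CPM against 30.8, 32.1 and 31.3 CPM in HCT116, a difference of 1.45 ± 0.14. WIPI1, an early factor of autophagy, rose in A375 alone, to 27.7, 29.8 and 25.9 CPM against 7.82, 8.08 and 8.72 CPM, while HCT116 held 20.2, 14.8 and 18.9 CPM against 15.8, 14.8 and 14.4 CPM. CCN3, a matricellular protein, MOSPD1 and the transcription factor FOXO1 completed the 10 largest positive differences, at 1.43 ± 0.20, 1.35 ± 0.15 and 1.25 ± 0.19.

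The other genes with opposite calls included membrane and signalling genes. KLF2, a transcription factor that responds to flow in endothelium, was 8.63, 7.79 and 10.5 CPM with inhibitor against 19.1, 21.7 and 19.2 CPM with DMSO in A375, and 48.5, 48.3 and 41.8 CPM against 28.1, 23.6 and 23.5 CPM in HCT116, a difference of -2.03 ± 0.14. CAV1, the coat protein of caveolae, was 207, 219 and 201 CPM against 485, 471 and 487 CPM in A375, and 893, 941 and 868 CPM against 637, 665 and 650 CPM in HCT116, a difference of -1.67 ± 0.05. For both genes all 3 treated libraries lay below DMSO in A375 and above DMSO in HCT116. EMP1, an epithelial membrane protein, was 207, 213 and 202 CPM against 300, 316 and 318 CPM in A375 and 65.6, 71.4 and 71.2 CPM against 42.0, 46.7 and 47.6 CPM in HCT116, a difference of -1.19 ± 0.07. RGS2, a brake on G protein signalling, PCLO, a presynaptic scaffold, and COL13A1, a transmembrane collagen, had differences of -1.68 ± 0.16, -1.43 ± 0.16 and -1.70 ± 0.20. In the converse direction stood DEPDC7 at 1.16 ± 0.15, TANK, an adaptor of TRAF proteins, at 1.05 ± 0.13, and the TGF-beta coreceptor TGFBR3 at 0.97 ± 0.21. TGFBR3 was 8.63, 6.61 and 9.60 CPM against 6.98, 4.8 and 5.46 CPM in A375, where the groups overlapped, and 9.28, 11.1 and 9.19 CPM against 13.4, 12.0 and 14.8 CPM in HCT116.

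Immediate early transcription factors split. Of 19 expressed in both lines, 11 were more negative in A375 and 5 more positive, beside 11.2% and 12.4% of all such genes. The 5 became 1 with DESeq2, 3 with limma-voom and 3 without A375 inhibitor replicate 1. JUN was 37.7, 38.7 and 36.6 CPM with inhibitor against 50.1, 48.1 and 51.1 CPM with DMSO in A375, and 49.2, 43.8 and 47.4 CPM against 19.2, 22.2 and 19.4 CPM in HCT116. It moved in opposite directions, with a difference of -1.62 ± 0.10 (edgeR, adjusted p = 2.6e-23). JUND rose in both lines, by more in HCT116, with a difference of -0.88 ± 0.07. Most targets of YAP and SRF, which report on the actin cytoskeleton, fell in both lines. Of 19 expressed in both, 15 fell in A375 and 17 in HCT116, with medians of -0.70 and -0.30. Among all such genes, 19.4% fell in A375 and 20.7% in HCT116. The difference was more negative in A375 for 7 of the YAP and SRF targets and more positive for 2, beside the same 11.2% and 12.4%. TPM1, a tropomyosin, was 161, 168 and 164 CPM against 353, 359 and 360 CPM in A375 and 18.8, 20 and 21.7 CPM against 23.3, 28.7 and 20.8 CPM in HCT116, a difference of -0.85 ± 0.10. AMOTL2, a partner of YAP, was the other way round at 0.62 ± 0.08, with 117, 114 and 113 CPM against 225, 230 and 231 CPM in A375 and 25.2, 32.0 and 31.2 CPM against 85.9, 91.4 and 90.6 CPM in HCT116. Among 15 MAPK feedback genes, led by the phosphatase DUSP4 at -0.77 ± 0.05, 3 were more negative and 2 more positive, beside the same shares. With DESeq2 size factors, library size alone or all 24 libraries, 4 of them were more positive.

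**Figure D5:**
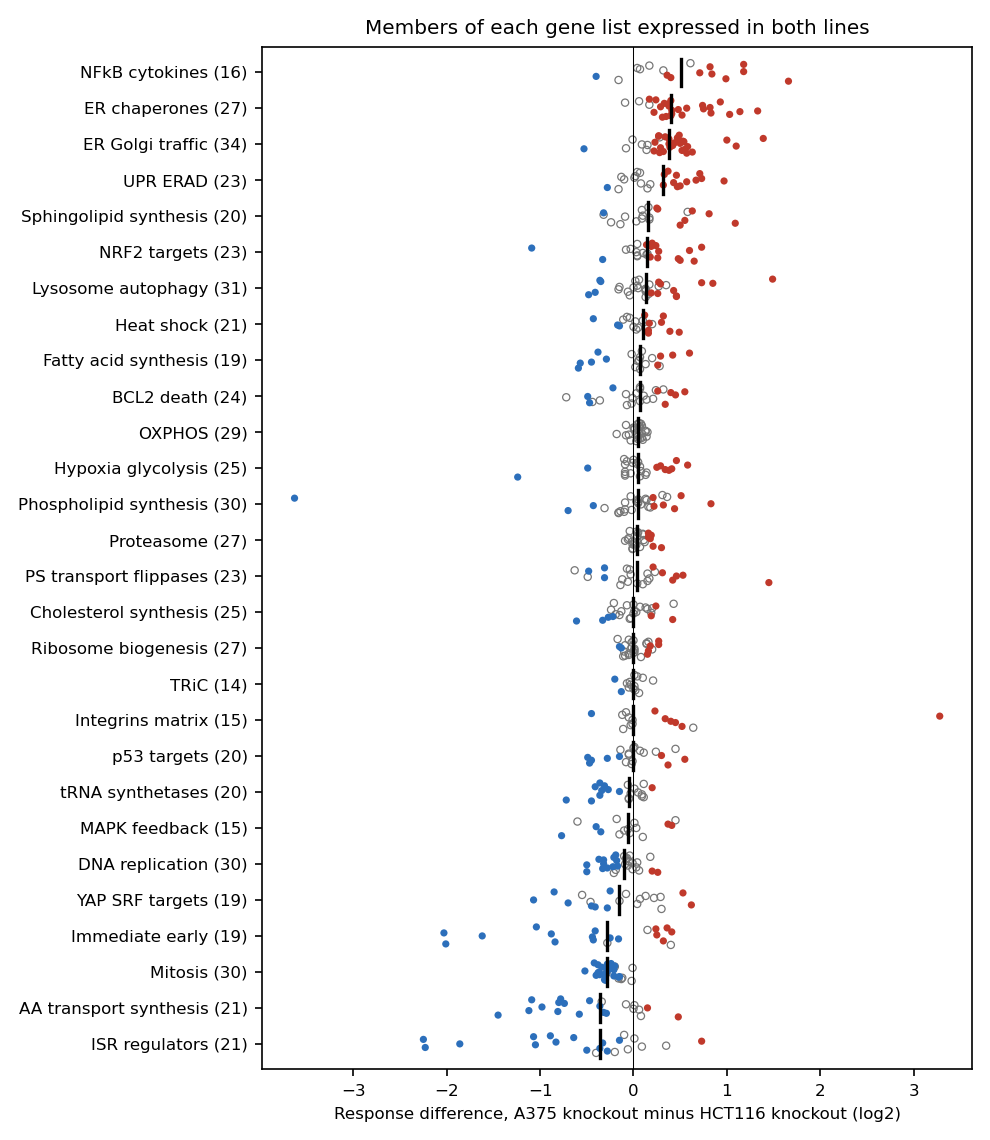
Response difference (horizontal axis, log2, A375 knockout minus HCT116 knockout) of each list member expressed in both lines, 1 point per gene, with the number of genes in brackets, filled points for called differences and black bars for list medians. Without the marker lists, medians run from -0.36 for the stress response and amino acid lists to 0.51 for the NF-kB list, and 29 oxidative phosphorylation genes cluster near 0.

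The counts of the lipid lists stand beside 12.4% more positive and 11.2% more negative among all genes expressed in both lines. Several of them lie near these shares. Among the same genes, 18.3% rose in A375 and 17.6% in HCT116. Of 30 phospholipid synthesis genes expressed in both lines, 6 were more positive in A375 and 3, PLPP1, CDS1 and ETNK2, more negative. LPCAT1, which acylates lysophosphatidylcholine, was 222, 215 and 228 CPM with inhibitor against 142, 143 and 137 CPM with DMSO in A375 and 116, 130 and 125 CPM against 145, 135 and 138 CPM in HCT116, a difference of 0.83 ± 0.06. SELENOI, which makes phosphatidylethanolamine from CDP-ethanolamine, rose in A375 and fell in HCT116, at 0.51 ± 0.06. Among 23 flippase, scramblase and lipid transfer genes 6 were more positive and 3 more negative. OSBPL10 and OSBP, lipid transfer proteins, were at 0.53 ± 0.09 and 0.46 ± 0.07, and the scramblase family member PLSCR1 at -0.48 ± 0.11. Among 20 sphingolipid genes 7 were more positive, 4 without A375 DMSO replicate 2, and 1 was more negative. CERT1, which carries ceramide to the Golgi, rose in both lines with a difference of 0.55 ± 0.08. Most cholesterol synthesis genes rose, 18 of 25 in A375 and 20 of 25 in HCT116, with medians of 0.37 and 0.40, and 3 were more positive and 4 more negative. The thiolase ACAT2 was at -0.61 ± 0.09. Among 19 fatty acid genes 4 were more positive and 5 more negative.

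The counts of the remaining lists stand beside 12.4% more positive and 11.2% more negative among all genes expressed in both lines, and several of them lie near these shares. Among the same genes, 18.3% rose and 19.4% fell in A375, and 17.6% rose and 20.7% fell in HCT116. Of 23 NRF2 targets expressed in both lines, 12 were more positive and 2 more negative, and 18 rose in A375 against 15 in HCT116. SQSTM1, an autophagy receptor that also activates NRF2, was 1700, 1750 and 1710 CPM with inhibitor against 717, 722 and 698 CPM with DMSO in A375, and 480, 465 and 470 CPM against 319, 337 and 314 CPM in HCT116. It rose in both lines, with a difference of 0.73 ± 0.04 (edgeR, adjusted p = 1.0e-24). FTH1, the heavy chain of ferritin, was at 0.48 ± 0.04. Of 31 lysosome and autophagy genes 10 were more positive and 4 more negative, the protease CTSB among the second at -0.48 ± 0.05. Of 21 heat shock genes of the cytosol and mitochondria, 18 fell and 1 rose in A375 and 17 fell and 2 rose in HCT116, and 8 were more positive and 3 more negative. HSPH1 fell in both lines and less so in A375, at 0.32 ± 0.05. The TRiC and prefoldin list had 2 of 14 called, and ribosome biogenesis had 7 of 27 called, with list medians of the difference at 0.00. None of 29 oxidative phosphorylation genes was called by edgeR, at differences from -0.18 to 0.15. Among 27 proteasome genes 6 were more positive, or 3 with DESeq2, and none more negative. Hypoxia and glycolysis genes had 7 more positive and 2 more negative of 25, with ADM, a secreted peptide, at -1.24 ± 0.12. Of 20 p53 targets, 3 were more positive and 5 more negative, a count of 2 or 3 negative members under several other settings. Cell death genes had 5 and 3 of 24, among them MCL1 at 0.26 ± 0.05, and 15 integrin and matrix genes had 6 and 1, among them ITGA6 at 0.45 ± 0.05 and LAMB1 at -0.45 ± 0.07. Of the marker lists, NGFR among 2 melanocyte genes expressed in both lines and COL1A1 among 2 fibroblast and immune genes were more negative in A375, at -1.40 ± 0.13 and -1.22 ± 0.33, and none of 3 colon genes was called. Some genes stand on more than 1 list, so the counts are not independent of each other.

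Genes expressed in 1 line only were kept apart, because a response cannot be read in a line where a gene is at or near 0. Their differences had a median standard error of 1.52 for A375 only and 0.875 for HCT116 only, against 0.109 for genes expressed in both, and were called for 2.87% and 2.50% of them. The responses in the line that expressed them were not rare. Of 1326 genes expressed in A375 only, 243 rose (18.3%) and 143 fell (10.8%) in A375, and of 1200 expressed in HCT116 only, 187 rose (15.6%) and 69 fell (5.75%) in HCT116. At the boundary, 620 genes had a mean of 0.5 to 1 CPM in the lower line and were left out of the shared class, and 731 had 1 to 2 CPM and were kept. Of the genes named here, PIP5KL1 at 0.952 CPM and FGFBP1 at 0.897 CPM in A375 lay just outside, and PTDSS2 at 1.27 CPM and COL1A1 at 1.34 CPM in A375 just inside.

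In A375 these genes included inflammatory and cytoskeletal ones. Complement C3 was 16, 13.6 and 14.1 CPM with inhibitor against 2.19, 2.15 and 1.16 CPM with DMSO in A375, a response of 2.99 ± 0.21 (edgeR, adjusted p = 1.1e-21), and at most 0.779 CPM in any HCT116 knockout library. The chemokine CCL2 was 9.50, 10.1 and 10.1 CPM against 2.19, 2.4 and 3.26 CPM, a response of 1.91 ± 0.22. AKR1C1, a reductase, and STC1, a secreted glycoprotein, rose by 1.41 ± 0.16 and 1.39 ± 0.16. ANKRD1, a YAP target, was 0.971, 0.691 and 0.698 CPM with inhibitor against 17.9, 17.4 and 22.0 CPM with DMSO, a response of -4.60 ± 0.22 (edgeR, adjusted p = 1.3e-30), and at or near 0 in HCT116. The ubiquitin ligase MARCHF4, the actin-binding NEXN and the kinase ALPK2 had responses of -3.04 ± 0.24, -2.30 ± 0.20 and -2.24 ± 0.16.

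In HCT116 the leading genes were of other kinds. SOCS1, an inhibitor of JAK and STAT signalling, was 18.9, 14.8 and 15.6 CPM with inhibitor against 1.92, 1.34 and 2.04 CPM with DMSO in HCT116, a response of 3.21 ± 0.22 (edgeR, adjusted p = 1.4e-22), and between 0.313 and 0.789 CPM in the A375 knockout libraries. FGFBP1, a carrier of fibroblast growth factors, was 27.2, 24.8 and 26.6 CPM against 3.74, 4.14 and 2.80 CPM, a response of 2.88 ± 0.16. MAMDC2 was 54.2, 59.4 and 58.6 CPM against 8.23, 7.84 and 7.96 CPM, a response of 2.84 ± 0.11, and PIP5KL1 had one of 2.05 ± 0.18. The falls were smaller in size than those of A375. MACC1, a regulator of MET, was 11.8, 13.9 and 11.5 CPM against 32.1, 30.6 and 30.9 CPM, a response of -1.33 ± 0.12. The vesicle protein SYTL3 and the vitamin D hydroxylase CYP24A1 had responses of -1.01 ± 0.07 and -0.89 ± 0.05.

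The same difference in the parent lines, where PTDSS2 is present, was close to empty. Of 14637 genes tested over the 24 libraries, 2 (0.0137%) had a called difference between the A375 and HCT116 parents, both of lipid metabolism and both more negative in A375. INSIG1, which holds SREBP in the ER, was at -0.45 ± 0.09 and SCD, the stearoyl-CoA desaturase, at -0.20 ± 0.04 (edgeR, adjusted p = 0.040 for each). At an unadjusted p under 0.05 there were 680. With each of the 24 libraries left out in turn, 0 to 3 genes were more negative in A375, and 0 in 17 of the 24 fits. HSPA5 was 942, 949 and 915 CPM with inhibitor against 935, 967 and 959 CPM with DMSO in A375 parents, and 940, 956 and 930 CPM against 949, 938 and 881 CPM in HCT116 parents. DDIT4 was 208, 199 and 207 CPM against 203, 194 and 202 CPM in A375 parents, and 27.3, 28.9 and 30.1 CPM against 29.8, 28.8 and 27.5 CPM in HCT116 parents. Treated and untreated libraries overlapped in both lines, and DDIT4 was higher in A375 than in HCT116 parents throughout.

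The knockout difference minus the parent difference was more positive in A375 for 893 of 14637 genes (6.10%) and more negative for 741 (5.06%). Of the 2761 genes with a called knockout difference, 1489 (53.9%) were called in the same direction here and none in the other. The fit has more terms and so wider errors, and it shares the 12 knockout libraries with the first. Of the ER chaperones 20 of 27 were more positive, of the ER-Golgi carriers 27 of 34, of the unfolded protein genes 10 of 23 and of the NF-kB genes 9 of 16. More negative were 13 of 21 amino acid genes, 9 of 21 integrated stress response genes and 16 of 30 mitosis genes. ITGB8 was at 3.04, PLPP1 at -3.40, DDIT4 at -1.89 and HSPA5 at 0.82 in this difference, against 3.28, -3.63, -1.86 and 0.75 in the knockouts alone.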

How the data were processed

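Poly(A) RNA libraries were prepared with an NEBNext Ultra kit, per the labels' protocols. The submitters' processing notes name STAR 2.4.2a, RSEM 1.2.23 and hg19. Which annotation and strand setting were used is not given in the sources used here, and reads of a gene and of an overlapping or antisense partner may be mixed. The authors deposited an expected count for each gene and library, in which RSEM shares out reads that match several genes, so near-identical copies are uncertain. Each library listed 25343 genes by number, of which 25220 were matched to symbols in a RefSeq table of GRCh38.p14. In any library, the 123 unmatched genes together took no more than 0.0724% of all counts.

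Expected counts were rounded to whole numbers, scaled with TMM and filtered with edgeR's expression filter (minimum count 10, minimum total 15). The quasi-likelihood F test of edgeR 4.0.16 in R 4.3.3, robust and two-sided, was fitted with a mean per group over the 12 knockout libraries (14320 genes), and over all 24 for the parents (14637 genes). Adjustment for multiple testing followed Benjamini and Hochberg across the whole table, at a threshold of 0.05. A standard error is the log2 value divided by the square root of F. CPM of parent libraries are scaled over the 24 libraries and those of knockouts over the 12. Level gaps and list medians by library added 0.5 CPM before the logarithm. Replicates differed by more than counting error and no pair was identical.

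The members, the 32 lists of genes and the naming rule were chosen with earlier results of these data known. Named were PTDSS1, PTDSS2 and PISD, the 10 largest called differences each way with at least 8 CPM in a group of each line, 6 genes with opposite calls each way, 4 rises and 4 falls per line among genes expressed in that line only, and up to 4 members per list with the smallest adjusted p. Other list members are given where a count turns on them. Some genes that the rule selects are not reported here. The tests were tested on simulated data. Other settings tried were DESeq2 1.42.0 and limma-voom (limma 3.58.1) as tests, scaling by DESeq2 size factors, by library size or by TMM in each line alone, testing unfiltered genes or only those averaging 5 CPM, a replicate block, all 24 libraries, 5 CPM or edgeR's filter as the bound of expression in a line, and each library left out.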

Additional observations from a re-analysis of the deposited data

Results flagged for a closer look

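The responses of the lines under the same contrast differed, by the test of the difference itself, for 1450 genes more positive in A375 and 1311 more negative among those expressed in both lines. The 12 genes named for opposite calls were picked from these called genes, so they meet the same criterion by the naming rule. In A375 ITGB8 (difference 3.28), FKBP14 (1.33), DEPDC7 (1.16), TANK (1.05), TGFBR3 (0.97) and SDF2L1 (0.93) rose and in HCT116 they fell. KLF2 (-2.03), PCLO (-1.43), EMP1 (-1.19), RGS2 (-1.68), COL13A1 (-1.70) and CAV1 (-1.67) fell in A375 and rose in HCT116. Groups of 3 libraries were not searched for single libraries that stand apart.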

How the results depend on the processing

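Directions and counts held under most alternatives. No named gene changed sign with a call. The count of called genes expressed in 1 line only, 68, was 32 with the filter at a mean of 5 CPM, 27 with DESeq2 and 168 when expression in a line meant 5 CPM, which redraws the class. With DESeq2, 132 genes in place of 202 rose in A375 and fell in HCT116, and 86 in place of 166 did the converse. The parent difference, 0 genes more positive and 2 more negative, became 2 and 4 with no filter, and the 2 became 0 with limma-voom. Leaving out each library gave 0 to 1 more positive and 0 to 3 more negative. The cause was not tested. For the main difference, leaving out each library gave 1270 to 1442 genes more positive and 1077 to 1204 more negative, and DESeq2 gave 1088 and 903. Called genes that lost the call somewhere were ANKRD1, C3, MAMDC2, PIP5KL1, PFDN5, PSMC2, CCT3, NPM1, SYTL3 and TNFRSF1A.

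Libraries of the same replicate number did not deviate together, with correlations from -0.13 to 0.12 between a group and its partner, so the numbers do not pair them. With a replicate block 1444 genes were more positive and 1288 more negative, and the parent difference had 0 more negative genes. The median standard error of the difference was 0.109 for genes expressed in both lines, 1.52 for those in A375 only and 0.875 for those in HCT116 only.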
